A study of Mus musculus with 9 samples.

Results

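The respiratory chain of mitochondria and the ATP synthase it drives were followed here through 98 genes for their subunits. The set held every protein-coding gene whose symbol starts with Nduf (assembly factors named Ndufaf left out), Uqcr, Cox4 to Cox8, Atp5 or mt-, together with Sdha to Sdhd. They are 98 of the 35275 genes in the count table: 85 lie in nuclear DNA and 13 in mitochondrial DNA. By complex, 38 nuclear and 7 mitochondrial genes belong to complex I, 4 nuclear genes to complex II, 8 and 1 to complex III, 18 and 3 to complex IV and 17 and 2 to complex V. A few subunits carry other symbols, such as Cyc1 of complex III, and are given with the pathway genes.

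RNA was sequenced in bulk from the front of the mouse eye on the day of birth (P0). The tissue held cornea, iris, ciliary body and drainage structures, with the lens removed. The 3 wildtype libraries were Col4a1+/+ and the 6 mutant libraries were Col4a1+/G1344D, heterozygous for a missense change in the gene for a type IV collagen chain of basement membranes. Each library was a pool of 4 eyes from 2 mice, and a p-value here speaks of the variation among such pools. The mutation leaves no mark on transcript level that would check the labels. Library totals ran from 25995340 to 35306935 counts. In bulk tissue, fewer cells of a type and less RNA per cell cannot be told apart.

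Complex I (NADH dehydrogenase) and complex II (succinate dehydrogenase) pass electrons to coenzyme Q, complex III (cytochrome bc1) passes them to cytochrome c, and complex IV (cytochrome c oxidase) passes them to oxygen. Complexes I, III and IV pump protons, and complex V (ATP synthase) makes ATP from the gradient. Complex II is built from nuclear genes alone, while the others join nuclear subunits, which are imported, with a few core subunits made inside the organelle. Mitochondrial genes are transcribed as long polycistronic RNAs that are cut into single messages. The iris and ciliary body muscles and the corneal endothelium, which pumps fluid, are users of this ATP in the anterior segment.

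As summed shares of all counts, nuclear subunit genes were lower and mitochondrial subunit genes higher in the mutant libraries, while 3 single mitochondrial genes fell. Nuclear subunit genes took 1.25%, 1.08% and 1.25% of all counts in wildtype 1, 2 and 3. In the mutant libraries they took 0.704% at the lowest, 0.902% at the median and 1.01% at the highest. Mitochondrial subunit genes took 2.19%, 2.12% and 2.13% of counts in wildtype 1, 2 and 3, and between 2.37% and 3.40% in the mutant, with a median of 2.94%. Neither share overlapped between the groups. The means were 1.19% ± 0.0961 (SD, n = 3) against 0.895% ± 0.108 (SD, n = 6) for nuclear genes and 2.15% ± 0.0333 against 2.93% ± 0.388 for mitochondrial genes. The ratio of nuclear to mitochondrial counts, which does not depend on how libraries are scaled, was 0.555 ± 0.0400 in wildtype and 0.313 ± 0.0758 in mutant libraries. It ran from 0.509 to 0.584 in wildtype and from 0.218 to 0.427 in mutant libraries, with mutant 4 lowest and mutant 2 highest. These are sums over chosen genes and were not tested.

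**Figure D1:**
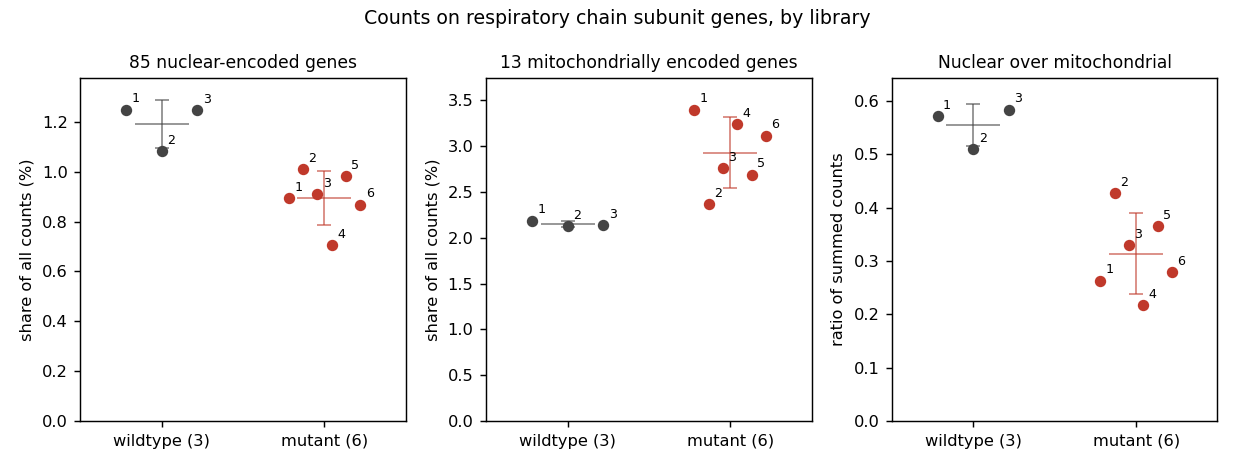
Share of all counts in percent on the 85 nuclear-encoded and the 13 mitochondrially encoded subunit genes, and the ratio of their summed counts, for each of the 9 libraries (points, numbered by replicate; lines show mean ± SD). Nuclear shares are lower in all 6 mutant libraries than in the 3 wildtype libraries, mitochondrial shares are higher, and the ratio lies at or under 0.427 in the mutant and at or over 0.509 in wildtype.

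Among all genes, the edgeR quasi-likelihood test with Benjamini-Hochberg adjustment tested 15825 and called 3034 at an adjusted p under 0.05, 9.47% of the tested genes lower and 9.7% higher in the mutant. Of the nuclear subunit genes 82 had enough counts to be tested: 56 fell, 0 rose and 26 did not pass the test. None rose at an unadjusted p under 0.05 or by DESeq2 or limma-voom either, which called 61 and 72 lower. Over all genes limma-voom also called more than edgeR did, and the all-gene shares lower by these 2 tools are not given. The median log2 fold change of the nuclear subunit genes by edgeR was -0.49, beside -0.0019 over all tested genes. Of the 82, 81 had a negative fold change. For 42 of the 82 every mutant library lay under every wildtype library, which held for 11.2% of all tested genes (10.8% had every mutant library above). Of the mitochondrial genes 12 were tested: 4 rose, 3 fell and 5 did not pass, with a median of 0.32. The untested members were the muscle isoform gene Cox6a2 (0 to 6 counts per library), the testis isoform genes Cox7b2 (4 counts, all in mutant 2) and Cox8c (no counts in any library) and mt-Atp8 (1 to 5 counts).

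**Figure D2:**
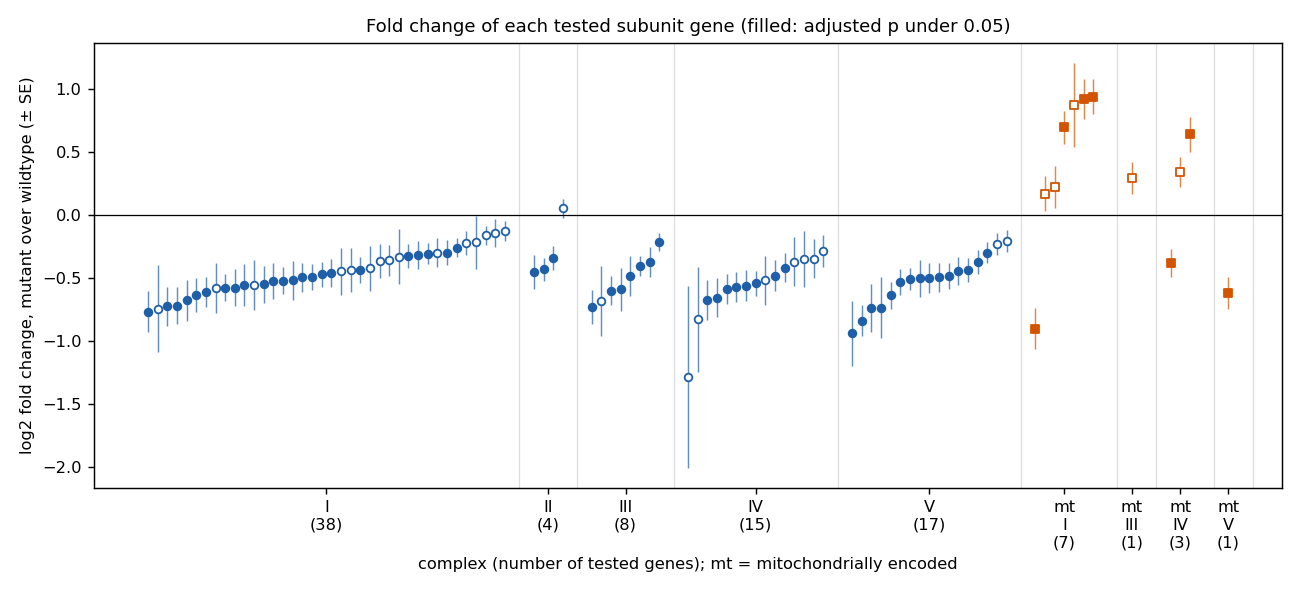
Log2 fold change of mutant over wildtype with its standard error for the 94 tested subunit genes, grouped by complex and by genome (circles nuclear, squares mitochondrial; filled symbols have an adjusted p under 0.05). All nuclear genes but Sdha lie under 0, while mitochondrial genes lie on both sides.

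Levels in RNA libraries can shift with transcript length, and such a shift ran between the groups here. A smooth trend on principal transcript length was fitted to the log2 deviations of each library from the mean of all libraries. The mean fitted value of genes over 4000 bases minus that of genes under 1000 bases was -0.50, -0.15 and -0.38 in wildtype 1, 2 and 3. It was between 0.0076 (mutant 5) and 0.55 (mutant 4) in the mutant libraries. Subunit messages are short, with a median principal transcript of 849.5 bases for tested nuclear members against 2916 for all tested genes with a length. Among genes of over 500 and up to 1000 bases, 27.8% of 1027 genes were called lower, with a median log2 fold change of -0.37, and 29 of 42 nuclear subunit genes, with a median of -0.52. Among those of over 1000 and up to 1500 bases, the share was 24.9% of 1512 genes, with a median of -0.27, and 12 of 14 subunit genes, with a median of -0.45. Fold change increased with length within the subunit genes as well (Spearman rho 0.556 over 82 nuclear members, 0.511 over 15751 genes, as a description over genes that share their libraries). The part of this trend in the falls was not tested. The fit can be repeated with a smooth trend on length taken out of each library. With total exon length removed, 37 nuclear subunit genes were lower and 0 higher, with a median of -0.30 (all genes: 7.9% lower, 5.8% higher). With the length of the principal transcript removed, 20 were lower and 0 higher, with a median of -0.23 (all genes: 5.74% lower, 4.16% higher).

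**Figure D3:**
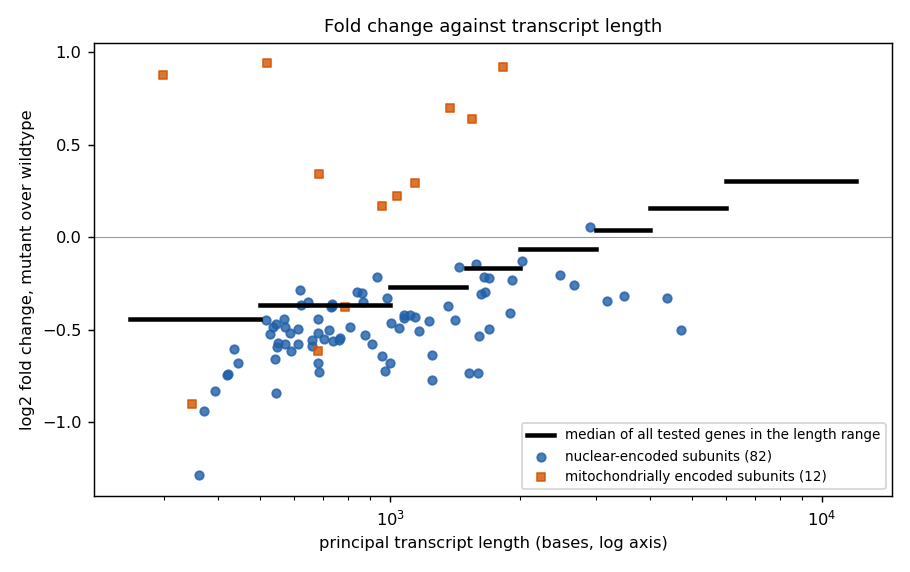
Log2 fold change of mutant over wildtype against principal transcript length in bases (log axis) for nuclear (circles) and mitochondrial (squares) subunit genes. Black bars give the median of all tested genes in each length range, from -0.44 up to 500 bases to 0.30 over 6000 bases (the bars at both ends cover open ranges), and most nuclear members lie under the bar of their range.

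Single libraries carried many calls. Without wildtype 1, where 1.45% of all tested genes were lower and 1.88% higher, 11 nuclear subunit genes were lower and 0 higher, with a median log2 fold change of -0.41. Without wildtype 3, 34 were lower, and the share over all genes in that fit is not given beside this count. Wildtype 1 also stood apart from the other wildtype libraries in ribosomal RNA: Gm42418, a gene model that overlaps a ribosomal RNA repeat, took 4.54% of its counts, between 0.0663% and 0.0708% in the other two, 0.0673% in mutant 2 and 4.11% to 6.91% in the other mutant libraries. The split leaves 1 library in 1 of the groups on each side, so its values are given with no comparison, and the part of ribosomal RNA in the results was not tested. Among libraries with little ribosomal RNA the nuclear to mitochondrial ratio was 0.427 in mutant 2 and 0.509 to 0.584 in wildtype 2 and 3. Among the rest it was 0.218 to 0.365 in 5 mutant libraries and 0.571 in wildtype 1.

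Markers of skeletal muscle, a cell type known to be rich in mitochondria, and of fat were at overlapping levels in the groups. Levels are in CPM (the depth-scaled count, with library totals scaled by TMM). Of 14 tested skeletal muscle markers edgeR called 0 (1 lower at an unadjusted p under 0.05). Their summed level was 24.1 to 29.6 CPM in wildtype and 22.9 to 31.5 in mutant. DESeq2 called 1 of them lower, and limma-voom 1 lower and 1 higher. Of 3 tested adipose markers, from a list of 8, edgeR called 0 (1 higher unadjusted, 0 by DESeq2 and 1 higher by limma-voom). Of 8 keratocyte markers 4 fell (summed level 7314 to 9738 CPM against 5242 to 7263), of 11 red cell markers 5 rose and 1 fell (537 to 954 against 1801 to 8794), of 12 macrophage markers 3 rose (286 to 301 against 401 to 552) and of 10 vascular endothelial markers 7 rose (517 to 592 against 701 to 814). Of 11 smooth muscle and pericyte markers, the cell types of iris and ciliary muscle and of vessel walls, 5 fell and 3 rose, at a summed level of 1627 to 1743 CPM in wildtype and 1302 to 1507 in mutant libraries, with no overlap. The contractile genes Actg2, Cnn1, Myh11, Acta2 and Tagln fell (log2 -0.89, -0.73, -0.35, -0.33 and -0.45), and the pericyte genes Abcc9, Cspg4 and Pdgfrb rose (log2 1.24, 0.96 and 0.54). Of 5 lens markers 1 fell, at a summed level of 48.8 to 55.9 against 36.4 to 43.5 CPM, also with no overlap. Without wildtype 1, 1 vascular marker was higher, 1 keratocyte marker lower, 2 red cell markers higher and 0 lower, 3 macrophage markers higher, 3 smooth muscle and pericyte markers higher and 3 lower, and 0 lens markers lower. The part of these cells in the subunit results was not tested. Of 12 surface epithelium markers, which include corneal keratins, 1 rose and 1 fell, at a summed level of 8980 to 9950 CPM in wildtype and 8552 to 9927 in mutant libraries. 

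Complex I. Of 38 nuclear genes 23 fell (median log2 fold change -0.47), and their summed level went from 2828 ± 345 CPM (SD, n = 3) to 2089 ± 236 (SD, n = 6). With principal transcript length removed 9 were lower, and without wildtype 1, 3. Among genes of its catalytic core, Ndufs1, Ndufs3, Ndufs7, Ndufs8 and Ndufv1 fell (log2 between -0.49 and -0.26), and these 5 were not called without wildtype 1. Ndufv2 stood at -0.22 (edgeR adjusted p = 0.108). The nuclear complex I members with the lowest p, Ndufa4, Ndufa6, Ndufb4 and Ndufa7, do not belong to this core. Ndufa6 stood at 86.2, 66.9 and 82.2 CPM in wildtype 1, 2 and 3 and at 39.1, 51.0 and 63.2 as the lowest, median and highest mutant library. Its groups did not overlap, and Ndufa6 fell 1.53-fold (log2 -0.61, SE 0.12, edgeR adjusted p = 0.00417). Ndufb4 stood at 47.2, 32.5 and 45 CPM and at 17.6, 25.5 and 31.1. It fell 1.65-fold without overlap (log2 -0.72, edgeR adjusted p = 0.00468), but was not called without wildtype 1 (adjusted p = 0.0542). Ndufa7 stood at 61.9, 57.9 and 64.0 CPM and at 32.5, 43.2 and 48.1, and fell 1.44-fold without overlap (edgeR adjusted p = 0.00473, and 0.169 with principal transcript length removed).

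Ndufa4, first assigned to complex I and now regarded as a subunit of cytochrome c oxidase, was the most abundant nuclear gene of the complex I set per kilobase of principal transcript, at 339 ± 56.6 CPM per kilobase in wildtype. It stood at 240, 171 and 208 CPM in wildtype 1, 2 and 3 and at 114, 138 and 157 in the mutant, with no overlap. It fell 1.49-fold (log2 -0.58, edgeR adjusted p = 0.00319), and its adjusted p was 0.0672 with principal transcript length removed. Its paralog Ndufa4l2, known as a hypoxia-induced gene, stood at 43.2, 42.7 and 28.9 CPM against 24.4, 30.8 and 52.7, with overlapping groups (log2 -0.22, edgeR adjusted p = 0.511). It made up 10.9% ± 2.86 of the pair's CPM per kilobase in wildtype and 13.2% ± 2.41 in the mutant. Ndufb2, chosen after its values were seen, was the least abundant nuclear complex I gene at 0.912 CPM per kilobase. The complex I genes that did not pass included Ndufa9 (log2 -0.16), Ndufa10 (-0.13) and Ndufv3 (-0.15), also chosen after their values were seen. With principal transcript length removed, Ndufa9 and Ndufv3 stood at 0.015 and 0.0098 (log2).

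Complex II. Succinate dehydrogenase is the member of the chain that also works in the citric acid cycle. Sdha, its flavoprotein, stood at 212, 199 and 218 CPM in wildtype 1, 2 and 3 and at 195, 220 and 234 as the lowest, median and highest mutant library, with overlapping groups (log2 0.05, SE 0.07, edgeR adjusted p = 0.653). Sdhb, the iron-sulfur subunit, stood at 133, 116 and 111 CPM and at 80.7, 86.9 and 103, with no overlap, and fell 1.35-fold (log2 -0.43, edgeR adjusted p = 0.00517). The membrane anchor genes Sdhc and Sdhd fell 1.27-fold and 1.37-fold (edgeR adjusted p = 0.0196 and 0.0304). The groups of Sdhc did not overlap, at 230, 199 and 202 CPM against 131 to 181. Those of Sdhd did, at 236, 161 and 207 CPM against 107 to 170. None of the 3 was called without wildtype 1 (adjusted p = 0.059 for Sdhb, 0.148 for Sdhc and 0.225 for Sdhd), and Sdhc was the one still called with principal transcript length removed (adjusted p = 0.0125).

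Complex III. Of 8 nuclear genes 7 fell (median log2 fold change -0.54), with a summed level of 1265 ± 139 CPM in wildtype and 932 ± 90.1 in the mutant. With principal transcript length removed 2 were lower, and without wildtype 1, 3. Uqcrq, a small subunit next to the quinone site, stood at 151, 103 and 138 CPM in wildtype 1, 2 and 3 and at 58.2, 81.5 and 90.6 in the mutant, with no overlap. It fell 1.66-fold (log2 -0.73, SE 0.14, edgeR adjusted p = 0.00325) and kept its call in each of the 9 fits that left out a library and in both length-corrected fits (adjusted p = 0.00173 and 0.00247). Uqcr10, another small subunit, stood at 105, 88.8 and 110 CPM against 50.1, 67.7 and 80.0, and fell 1.52-fold without overlap (edgeR adjusted p = 0.00352). The core protein gene Uqcrc2 stood at 285, 239 and 231 CPM against 182, 185 and 203, and fell 1.33-fold without overlap (edgeR adjusted p = 0.00372). Uqcrh, which makes the hinge protein between cytochromes c1 and c, stood at 378 ± 79.8 CPM per kilobase in wildtype and 251 ± 52.4 in the mutant. It stood at 244, 159 and 218 CPM against 88.5, 144 and 174, with overlapping groups, and fell 1.51-fold (edgeR adjusted p = 0.0286, and 0.197 without wildtype 1).

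Complex IV. Of 15 tested nuclear genes 8 fell (median log2 fold change -0.54), and the summed level of all 18 went from 2050 ± 248 to 1446 ± 198 CPM. With principal transcript length removed 2 were lower, and without wildtype 1, 1. Cox4i1, the general isoform of the largest nuclear subunit, stood at 428, 319 and 372 CPM in wildtype 1, 2 and 3 and at 207, 264 and 284 in the mutant, with no overlap. It fell 1.46-fold (log2 -0.54, SE 0.10, edgeR adjusted p = 0.00324, and 0.0428 without wildtype 1). Cox8a was the most abundant nuclear gene of complex IV per kilobase of principal transcript, at 652 ± 49.3 CPM per kilobase in wildtype and 438 ± 74.3 in the mutant. It stood at 379, 328 and 368 CPM against 172, 243 and 287, and fell 1.49-fold without overlap (edgeR adjusted p = 0.00559, and 0.0538 without wildtype 1). Cox7a2 and Cox6c fell 1.5-fold and 1.48-fold (edgeR adjusted p = 0.00465 and 0.00704), and Cox7b 1.6-fold (adjusted p = 0.01). All 3 lost their calls without wildtype 1, at adjusted p = 0.0603, 0.083 and 0.0791. Cox6b1 stood at 128, 98.9 and 122 CPM against 65.0, 98.4 and 108, with overlapping groups, and did not pass (log2 -0.29, adjusted p = 0.132).

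The proportions of the tissue isoforms of complex IV were close in both groups, and were not tested. Cox4i1 made up 97.9% ± 0.575 of the CPM per kilobase of the Cox4 pair in wildtype and 97.6% ± 0.576 in the mutant, the remainder being Cox4i2, an isoform of lung and of low oxygen. The heart and muscle isoforms were close to absent: Cox7a1 made up 0.767% ± 0.306 and 0.567% ± 0.218 of its family, and Cox8b 0.330% ± 0.211 and 0.208% ± 0.181. Cox7a1 (log2 -0.83, edgeR adjusted p = 0.177) and Cox8b (-1.29, adjusted p = 0.223) rested on few counts and did not pass. Cox6b2, known from testis, made up 10.9% ± 1.65 of the Cox6b pair in wildtype and 9.4% ± 1.63 in the mutant (log2 -0.52, adjusted p = 0.0743). Cox7a2l, which links complexes III and IV into supercomplexes, held 66.7% ± 2.38 and 69.2% ± 2.08 of its family and fell 1.34-fold without overlap (edgeR adjusted p = 0.0194, and 0.165 without wildtype 1). Cox6a1, at 99.99% and 99.97% of its family, fell 1.40-fold without overlap (adjusted p = 0.0141, and 0.104 without wildtype 1).

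Complex V. Of 17 nuclear genes 15 fell (median log2 fold change -0.50), and their summed level went from 4973 ± 465 to 3881 ± 331 CPM. With principal transcript length removed 6 were lower, and without wildtype 1, 4. Atp5l, subunit g of the membrane part, stood at 176, 120 and 166 CPM in wildtype 1, 2 and 3 and at 64.1, 88.3 and 94.6 as the lowest, median and highest mutant library. The groups did not overlap, and the fall of 1.79-fold had the lowest p of all nuclear members (log2 -0.84, SE 0.12, edgeR adjusted p = 0.000897). It was called without wildtype 1 (adjusted p = 0.0137), with exon length removed (0.000901) and with principal transcript length removed (0.00104). Atp5j2, subunit f of the membrane part, stood at 138, 132 and 130 CPM against 69.3, 84.1 and 110, and fell 1.56-fold without overlap (log2 -0.64, edgeR adjusted p = 0.00197). Atp5c1, the gamma subunit that forms the rotating shaft, stood at 392.1, 308 and 335 CPM against 214, 245 and 261, and fell 1.42-fold without overlap (log2 -0.51, edgeR adjusted p = 0.00205). Atp5f1, subunit b of the stalk, stood at 355, 255 and 312 CPM against 179, 213 and 245, and fell 1.45-fold without overlap (edgeR adjusted p = 0.00428, and 0.0537 without wildtype 1).

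The genes for the alpha and beta subunits, which form the catalytic F1 head, did not pass the test. Atp5a1 stood at 1393, 1174 and 1285 CPM in wildtype 1, 2 and 3 and at 974, 1134 and 1192 in the mutant, with overlapping groups (log2 -0.21, SE 0.09, edgeR adjusted p = 0.122). Atp5b, chosen after its values were seen, stood at 1299, 1105 and 1207 CPM against 918, 1037 and 1092, with no overlap (log2 -0.23, adjusted p = 0.0764). The genes for the other F1 subunits, Atp5c1, Atp5d and Atp5e, fell. Differences in fold change between subunits of a complex were not tested. The genes for the proton-carrying c ring encode the same mature protein. Atp5g3 made up 59.6% ± 2.92 of their CPM per kilobase in wildtype and 57.4% ± 3.74 in the mutant. Atp5g2 made up 36.3% ± 3.07 and 38.6% ± 3.67, and Atp5g1 4.09% ± 0.165 and 3.98% ± 0.255. These shares depend on the principal transcript taken, which was 4715 bases for Atp5g1, 731 for Atp5g2 and 723 for Atp5g3. Atp5g1, Atp5g2 and Atp5g3 fell 1.42-fold, 1.3-fold and 1.42-fold (edgeR adjusted p = 0.0103, 0.0147 and 0.0298), and none was called without wildtype 1.

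Of the 56 nuclear genes called lower, 10 kept the call in all 9 fits that left out a library: Ndufa4, Ndufa6, Ndufa7, Uqcr10, Uqcrc2, Uqcrq, Cox4i1, Atp5c1, Atp5j2 and Atp5l. All but Ndufa4, Ndufa7 and Uqcr10, 7 in number, were also called in both length-corrected fits. The call was lost without wildtype 1 for 45 and without wildtype 3 for 22. Without wildtype 3 the edgeR adjusted p was 0.0988 for Sdhd, 0.087 for Uqcrh, 0.099 for Atp5g3, 0.054 for Cox7a2l and 0.0534 for Cox7b. Without mutant 1 it was 0.0509 for Sdhd, 0.0538 for Uqcrh and 0.0509 for Atp5g3. With wildtype 1 left out and principal transcript length removed together, Uqcrq and Atp5l were the 2 nuclear subunit genes still called lower.

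**Figure D4:**
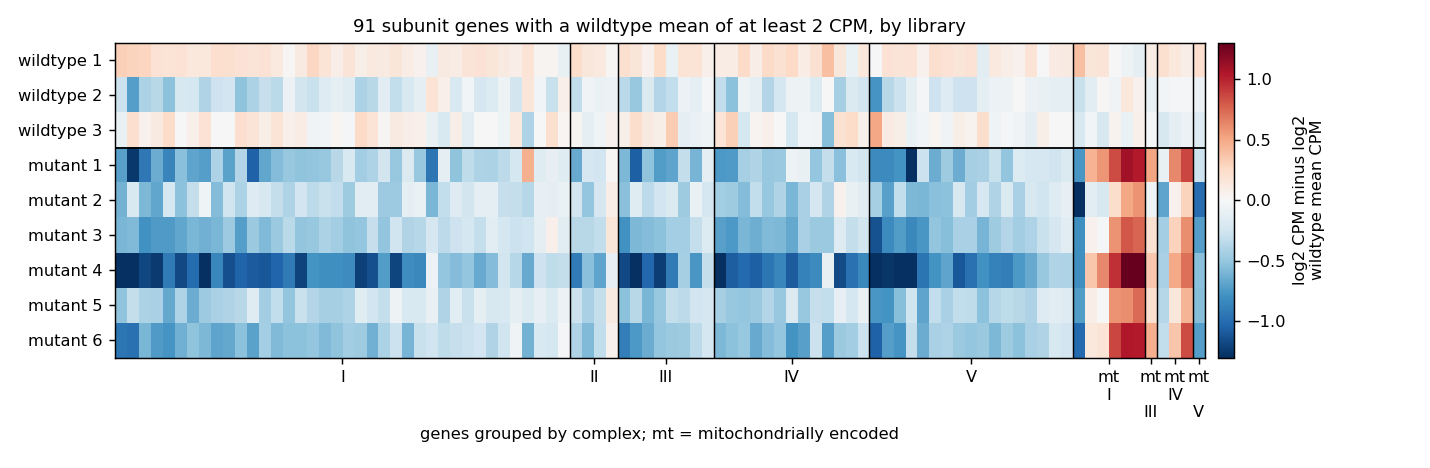
Log2 CPM of each library minus the log2 of the wildtype mean (colour, blue lower and red higher) for the 91 subunit genes with a wildtype mean of at least 2 CPM, in columns grouped by complex, and the 9 libraries in rows. The nuclear columns are bluest in mutant 4 and palest in wildtype, and the mitochondrial columns hold both colours in the mutant rows.

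Mitochondrial genes. Both strands of mitochondrial DNA carry subunit genes, mt-Nd6 being the one member on the minus strand. The members in the table differed by their likeness to nuclear DNA. A stretch of chromosome 1 holds unprocessed pseudogenes copied from the mitochondrial genome, and the table counts them as genes of their own. Aligned with blastn at an identity of at least 98%, they covered 99.1% of mt-Nd3, 99% of mt-Nd4l, 99.6% of mt-Co2, 99.9% of mt-Co3 and 99.6% of mt-Atp6. They covered 63.6% of mt-Nd4 and 31.3% of mt-Co1, and none was found for mt-Nd1, mt-Nd2, mt-Nd5, mt-Nd6, mt-Cytb or mt-Atp8. Only annotated transcripts were searched, so an unannotated copy would be missed. This may hold for mt-Atp8, which lies between mt-Co2 and mt-Atp6, whose copies are neighbours in that stretch. The sequences below are shown because they set which mitochondrial counts are certain: the first 120 bases of mt-Nd3 (chrM:9459-9806) and of its copy Gm28438 (chr1:24612775-24613119, minus strand), bases 1063 to 1182 of mt-Co1 (chrM:5328-6872) and the matching stretch of Gm29216 (chr1:24615706-24616197, minus strand), and the first 120 bases of mt-Atp6 (chrM:7927-8607), which are the same in Gm10925 (chr1:24613974-24614651, minus strand). They are from GENCODE transcripts of GRCm38, and capitals mark the base that differs within a pair.
mt-Nd3: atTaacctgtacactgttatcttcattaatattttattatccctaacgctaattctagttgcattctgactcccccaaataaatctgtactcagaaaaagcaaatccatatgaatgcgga
Gm28438: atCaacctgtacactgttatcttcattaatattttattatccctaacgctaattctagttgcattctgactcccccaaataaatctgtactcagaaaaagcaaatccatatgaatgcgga
mt-Co1: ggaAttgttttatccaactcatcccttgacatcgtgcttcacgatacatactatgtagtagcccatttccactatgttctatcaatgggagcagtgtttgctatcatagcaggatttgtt
Gm29216: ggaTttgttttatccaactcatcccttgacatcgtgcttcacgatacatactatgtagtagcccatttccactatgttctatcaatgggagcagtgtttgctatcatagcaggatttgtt
mt-Atp6: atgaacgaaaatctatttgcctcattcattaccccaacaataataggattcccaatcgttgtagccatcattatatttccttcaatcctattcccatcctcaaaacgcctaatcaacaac
Over their aligned lengths, mt-Nd3 and mt-Co1 each differed from the copy at 1 base (of 345 and 483), and mt-Nd4, mt-Nd4l, mt-Co2, mt-Co3 and mt-Atp6 at 0 bases (of 876, 294, 681, 783 and 678). The 5 genes copied nearly whole held between 0.58% and 1.2% of the mitochondrial subunit counts of a library. Per kilobase they stood between 3.75 (mt-Nd4l) and 125 (mt-Co3) CPM in wildtype, while the others except mt-Atp8 stood between 579 (mt-Nd6) and 5508 (mt-Nd1). Counts of the gene over counts of its copy ran from 0.988 to 1.12 for mt-Co2, 1.09 to 1.17 for mt-Co3 and 0.464 to 0.537 for mt-Atp6 across libraries, and from 414 to 538 for mt-Co1. The counts of these 5 genes are therefore uncertain. The sources used here do not say how reads with several best places were handled.

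**Figure D5:**
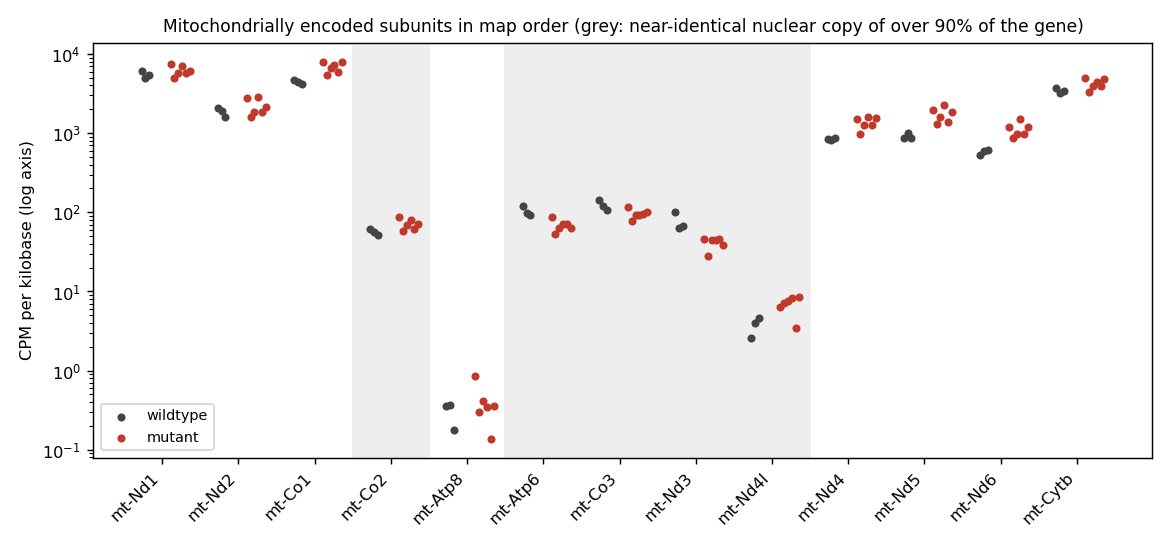
CPM per kilobase (log axis) of the 13 mitochondrially encoded subunit genes in map order, for 3 wildtype and 6 mutant libraries (points). Genes with a near-identical nuclear copy of over 90% of their length (grey) lie between 3.75 and 125 in the wildtype mean, under every other gene except mt-Atp8.

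All 4 mitochondrial genes that rose were outside those 5, and all 3 that fell were among them. Of the 4, mt-Nd4 and mt-Co1 had a copy of part of their length (63.6% and 31.3%). No copy was found for mt-Nd5 and mt-Nd6. With length removed, mt-Co2 and mt-Nd4l of the 5 were called higher (edgeR adjusted p = 0.0243 and 0.0357 for principal transcript length, 0.0173 and 0.0291 for exon length). mt-Nd5, a proton-pumping subunit of complex I, stood at 1594, 1835 and 1577 CPM in wildtype 1, 2 and 3 and at 2370, 3172 and 4178 as the lowest, median and highest mutant library. It rose 1.90-fold without overlap (log2 0.92, SE 0.16, edgeR adjusted p = 0.00217). mt-Nd6, read from the other strand, stood at 276, 312 and 314 CPM against 452, 560 and 773, and rose 1.92-fold without overlap (log2 0.94, SE 0.14, edgeR adjusted p = 0.00102). The ends of mt-Nd5 and mt-Nd6 overlap (chrM:13552-13565), and without a stated strand setting their reads cannot be fully told apart. mt-Nd4, another pumping subunit, stood at 1158, 1123 and 1192 CPM against 1357, 1914 and 2228, and rose 1.62-fold without overlap (edgeR adjusted p = 0.00373). mt-Co1, the catalytic subunit of cytochrome c oxidase, stood at 7230, 6760 and 6446 CPM against 8305, 10776 and 12407, and rose 1.56-fold without overlap (edgeR adjusted p = 0.00715). These 4 genes kept their calls in all 9 fits that left out a library. Without wildtype 1 their adjusted p was between 0.0169 and 0.0362.

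The remaining genes with no copy found did not pass. mt-Nd1, the quinone-site subunit, stood at 5892, 4763 and 5160 CPM in wildtype against 4807, 5682 and 7235 (log2 0.17, edgeR adjusted p = 0.404). mt-Nd2 stood at 2182, 1954 and 1677 CPM against 1678, 2064 and 2978 (log2 0.22, adjusted p = 0.375). mt-Cytb, the electron-carrying core of complex III, stood at 4250, 3723 and 3918 CPM against 3824, 4809 and 5671 (log2 0.29, adjusted p = 0.117, and 0.0176 with principal transcript length removed). The groups of all 3 overlapped.

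Among the genes copied nearly whole, mt-Nd3 stood at 35.4, 22 and 23.4 CPM in wildtype 1, 2 and 3 and at 9.86, 15.5 and 16.2 in the mutant, and fell 1.87-fold without overlap (log2 -0.90, edgeR adjusted p = 0.00302, and 0.0708 with principal transcript length removed). mt-Atp6, the proton channel subunit of complex V, stood at 83.0, 67.7 and 63.8 CPM against 35.9, 46.0 and 59.4, and fell 1.53-fold without overlap (edgeR adjusted p = 0.00506, 0.0629 without wildtype 1 and 0.332 with principal transcript length removed). mt-Co3 stood at 113, 95.2 and 84.8 CPM against 60.6, 74.4 and 91.2, with overlapping groups, and fell 1.3-fold (edgeR adjusted p = 0.0277, 0.223 without wildtype 1, 0.0542 without wildtype 2, 0.0557 without mutant 3 and 0.825 with principal transcript length removed). The copies had fold changes of the same sign as the genes: Gm28438 log2 -1.12 (adjusted p = 0.00508), Gm10925 -0.52 and Gm28437 -0.37. mt-Co2 stood at 42.1, 38.0 and 35.1 CPM against 39.9, 48.3 and 59.1 and did not pass (log2 0.34, adjusted p = 0.054), and mt-Nd4l, at 0.774, 1.2 and 1.37 CPM against 1.01, 2.2 and 2.53, did not either (log2 0.87, adjusted p = 0.0778). With exon length removed, 7 mitochondrial genes were higher and 1 lower; with principal transcript length removed, 7 and 0; without wildtype 1, 4 and 1.

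Within single complexes the summed mitochondrial level went from 10364 ± 671 to 13832 ± 2453 CPM in complex I, from 3963 ± 266 to 4861 ± 690 in complex III and from 6948 ± 412 to 10750 ± 1652 in complex IV. The nuclear sums of the same complexes were 0.739, 0.737 and 0.706 of their wildtype mean in the mutant, and the mitochondrial sums 1.33, 1.23 and 1.55 times theirs. Complex II, with nuclear genes alone, was at 0.836 of its wildtype mean. For complex V, the mitochondrial sum rested on mt-Atp6, whose counts are uncertain.

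Nuclear members were searched in the same way. An annotated copy of at least 75 bases at 98% identity or more was found for 15 of 85, and covered 50% or more of the transcript for 6: Ndufs3, Uqcrb, Cox7c, Atp5g2, Atp5h and Atp5l. All 6 were called lower, and their closest copies held at most 66 counts in a library (Gm10175, the copy of Atp5g2).

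Nuclear subunit genes are textbook targets of the factors NRF1, ETS-type GABP and YY1, so their promoters were searched for GCATGCGC (NRF1), CCGGAAGT (ETS) and AAGATGGC (YY1) on both strands. The window ran from 250 bases before to 50 after the RefSeq start (GRCm38.p6), and 67 of the 85 genes had an entry. The NRF1 letters were in 10 (14.9%), the ETS letters in 5 (7.5%) and the YY1 letters in 8 (11.9%), beside 2.7%, 3.9% and 2.7% of all 32851 promoters of this length. The NRF1 letters overlap their own reverse complement, so a stretch can hold both. At least 1 of the motifs was in 17 of 44 genes called lower (38.6%) and in 5 of 22 tested genes not called (22.7%), beside 8.8% of all promoters. These are matches of letters and were not tested. For each motif the promoter of the called gene with the largest fall is shown, Atp5k for NRF1 (chr5:108434350-108434649), Uqcrh for ETS (chr4:116075021-116075320) and Ndufb8 for YY1 (chr19:44555393-44555692), all on the minus strand and written 5′ to 3′ with matches in capitals.
Atp5k: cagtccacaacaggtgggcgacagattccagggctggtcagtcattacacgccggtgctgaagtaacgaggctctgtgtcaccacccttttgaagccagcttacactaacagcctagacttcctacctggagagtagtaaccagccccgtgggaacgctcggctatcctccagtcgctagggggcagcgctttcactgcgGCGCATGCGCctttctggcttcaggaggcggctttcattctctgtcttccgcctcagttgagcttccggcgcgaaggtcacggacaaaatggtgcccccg
Uqcrh: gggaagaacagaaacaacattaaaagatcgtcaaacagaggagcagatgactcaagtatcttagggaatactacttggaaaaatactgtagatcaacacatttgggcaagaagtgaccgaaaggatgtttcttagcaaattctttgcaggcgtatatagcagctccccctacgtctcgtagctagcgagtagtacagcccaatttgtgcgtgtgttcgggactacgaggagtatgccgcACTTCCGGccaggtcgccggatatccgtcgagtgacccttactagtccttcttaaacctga
Ndufb8: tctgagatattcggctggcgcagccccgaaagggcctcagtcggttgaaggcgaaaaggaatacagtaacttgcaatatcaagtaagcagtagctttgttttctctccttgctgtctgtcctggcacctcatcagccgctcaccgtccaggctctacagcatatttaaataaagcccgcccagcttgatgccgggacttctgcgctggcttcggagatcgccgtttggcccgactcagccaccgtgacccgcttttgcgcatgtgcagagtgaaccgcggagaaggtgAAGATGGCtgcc
Atp5k, subunit e of ATP synthase, fell 1.92-fold with overlapping groups (log2 -0.94, SE 0.26, edgeR adjusted p = 0.0216, and 0.1 without wildtype 1). Ndufb8, an accessory subunit of complex I, fell 1.6-fold with overlapping groups (log2 -0.68, edgeR adjusted p = 0.0105, and 0.0941 without wildtype 1). Both were chosen after their values were seen. In Ndufb8 the YY1 letters lie near the 3′ end of the window, past the start of the transcript.

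Nuclear genes for other mitochondrial proteins were described from lists. Over all tested genes 9.47% were called lower and 9.7% higher, and 1.45% and 1.88% without wildtype 1. Of 76 tested mitochondrial ribosomal protein genes, whose products translate the mitochondrial messages, 35 fell and 0 rose (median log2 fold change -0.33), and 4 were lower without wildtype 1. Mrpl52, Mrpl41 and Mrps24 fell 1.52-fold, 1.56-fold and 1.65-fold (edgeR adjusted p = 0.00253, 0.00339 and 0.00373). Of 47 assembly factor genes, which put the complexes together, 15 fell and 0 rose (median -0.30), and 1 was lower without wildtype 1. Among them were Coa3 and Surf1, both needed for cytochrome c oxidase, at 1.47-fold and 1.41-fold lower, and Foxred1, a complex I assembly factor, at 1.41-fold lower (edgeR adjusted p = 0.00215, 0.0096 and 0.0105). Without wildtype 1, Coa3 was the one still called (adjusted p = 0.0241). Of 16 genes for cytochrome c, coenzyme Q synthesis and the ATP synthase inhibitor 5 fell and 0 rose (median -0.34). Cycs, the electron carrier between complexes III and IV, fell 1.52-fold from 83.4 ± 10.2 to 54.7 ± 6.76 CPM and had an adjusted p of 0.00246 (edgeR), 0.0302 without wildtype 1 and 0.000872 with principal transcript length removed. Cyc1, the heme-bearing cytochrome c1, fell 1.41-fold and Atpif1, the inhibitor of ATP synthase, 1.70-fold (edgeR adjusted p = 0.00411 and 0.00417).

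Of 19 tested genes that copy and transcribe mitochondrial DNA, 3 fell (15.8%, beside 9.47% of all tested genes) and 0 rose (median log2 fold change -0.13). These were Mterf4, the single-stranded DNA binding protein gene Ssbp1 and the transcription elongation factor gene Tefm, at 1.34-fold, 1.35-fold and 1.41-fold lower (edgeR adjusted p = 0.0251, 0.036 and 0.0402), none of them called without wildtype 1 (adjusted p = 0.173, 0.195 and 0.285). Of 23 genes for processing and stability of mitochondrial RNA 3 fell and 0 rose (median -0.038): Hsd17b10, a part of mitochondrial RNase P, Fastk, and Slirp, which stabilises mitochondrial messages. Without wildtype 1, 0 of the 23 were lower, with adjusted p = 0.0546 for Hsd17b10 and 0.0734 for Fastk. Slirp fell 2.17-fold from 2.94 ± 0.375 to 1.35 ± 0.664 CPM (edgeR adjusted p = 0.0283, and 0.0876 without wildtype 1). Of 13 regulators of respiratory gene expression 1 rose and 1 fell (median log2 fold change 0.32, with 10 of 13 positive), 5 were higher at an unadjusted p under 0.05, and DESeq2 called 4 higher and 1 lower. These genes are long, with a median principal transcript of 3901 bases. With exon or principal transcript length removed their median log2 fold change was 0.077, with 1 higher and 1 lower. Esrra, the estrogen-related receptor that drives many of these genes, fell 1.48-fold from 46.0 ± 7.92 to 31.1 ± 7.06 CPM, and Myc rose 1.45-fold from 10.3 ± 1.1 to 14.9 ± 3.01 CPM (edgeR adjusted p = 0.0249 and 0.0406, and 0.183 and 0.136 without wildtype 1). Perm1 did not pass (log2 0.78, adjusted p = 0.0644).

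In the pathways that feed the chain, 4 of 16 citric acid cycle genes fell (25%) and 0 rose (median -0.18). Of 18 glycolysis genes 3 fell (16.7%) and 0 rose (median -0.16), beside 9.47% lower over all tested genes. Pdhb, Idh3a and Suclg1 of the cycle and its entry fell 1.28-fold, 1.33-fold and 1.27-fold (edgeR adjusted p = 0.00612, 0.0109 and 0.0119). The glycolysis genes Tpi1 and Eno3 fell 1.39-fold and 1.49-fold, and Ldhb, which interconverts lactate and pyruvate, 1.25-fold (edgeR adjusted p = 0.0103, 0.0225 and 0.0082). Without wildtype 1, 0 genes of the cycle and 0 of glycolysis were called in either direction (edgeR).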

How the data were processed

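Per the labels, 3 wildtype and 6 mutant libraries were sequenced, and raw read counts per Ensembl gene were deposited by the authors, whole numbers with no normalization. The submitters' processing notes name STAR 2.6.1, HTSeq 0.6.1, DESeq2 1.6.3 and GRCm38, with no roles. No source used here states the annotation release or strand setting. Symbols and lengths came from GENCODE M21, which held 34490 of 35275 identifiers.

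The counts were tested with edgeR 4.0.16 (R 4.3.3): TMM scaling, filterByExpr, and the quasi-likelihood test (robust) of genotype with no covariate, adjusted by Benjamini-Hochberg over 15825 genes at 0.05. Length trends were removed with mgcv 1.9.3 as offsets. DESeq2 1.42.0 and limma 3.58.1 were alternatives, copies were aligned with blastn 2.17.0, and the fits were checked on simulated data. No 2 replicates were as alike as sampling noise allows (chi-square per degree of freedom 14.7 to 183).

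Named genes were the mitochondrial members, Sdha to Sdhd, tissue isoforms, per complex the 4 nuclear members with the lowest p and the most abundant per exon length, and up to 3 genes per pathway list. Members and lists were chosen with earlier results of these data known. The melanocyte and pigment epithelium list had 1 of 9 lower, and 0 without wildtype 1. Its summed level was 15874.8 to 16610.4 CPM in wildtype and 14096.5 to 15801.7 in mutant libraries, with no overlap. The retina list had 0 of 3 lower (0 unadjusted, 0 by DESeq2 and 1 by limma-voom). One member is counted among the totals and is not reported here by itself.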

Additional observations from a re-analysis of the deposited data

Results flagged for a closer look

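In 9 of the 49 sets of mutant values examined, the lowest library stood apart from the nearest other library by a large part of the whole range. The limit was Dixon's critical value for 6 samples, and chance gives about 1 in 20 such sets. The genes share libraries, so the sets are not independent. Mutant 4 was the lowest library for 8 of them: the gap was 0.78 of the range for Sdhc, 0.776 for Atp5l, 0.766 for Cox6b1, 0.732 for Atp5g1, 0.714 for Cox7a2, 0.674 for Ndufa7, 0.661 for Cox6c and 0.658 for Cox7b, all on log2 CPM. Mutant 4 also had the largest length trend (0.55 on the log2 scale) and the largest ribosomal RNA share (6.91% of counts), and their part in these values was not tested. Without mutant 4, Sdhc, Atp5l, Atp5g1, Cox7a2, Ndufa7, Cox6c and Cox7b were still called lower. Mutant 5 was lowest for mt-Nd4l, by 0.688 of the range, at 1.01 CPM and with near-identical nuclear sequence.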

How the results depend on the processing

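None of the named genes called lower or higher changed sign under an alternative. Of 69 named genes 3 that did not pass did so: Ndufa4l2 went from -0.22 (log2) to between 0.01 and 0.08 with either length removed, Cox6b1 from -0.29 to 0.04 with principal transcript length removed, and Cox4i2 from -0.37 to 0.10 and 0.13 with exon or principal transcript length removed and wildtype 1 left out. For the nuclear-encoded subunits the count called lower (56) was 37 with exon length removed, 20 with principal transcript length removed, 36 with the ribosomal RNA split as a covariate, 6 and 2 with exon or principal transcript length removed and wildtype 1 left out, and 26 at a threshold of 0.01. With single libraries left out it lay between 11 and 60. It was 61 with DESeq2 and 72 with limma-voom. For the mitochondrially encoded subunits the count called higher (4) was 7 with either length removed or with DESeq2, 2 and 1 with exon or principal transcript length removed and wildtype 1 left out, and 4 to 6 with single libraries left out. For mutant against wildtype, all genes, the 3034 calls became 1568 with principal transcript length removed, 1877 with the ribosomal RNA covariate, 481 and 274 with exon or principal transcript length removed and wildtype 1 left out, 4694 with limma-voom and 1032 at 0.01, and lay between 538 and 3265 with single libraries left out. The difference in mitochondrial share (0.780 percentage points) stayed between 0.685 and 0.892, and that of the log2 nuclear to mitochondrial ratio (-0.857) between -0.953 and -0.759. Apart from the stricter threshold, which lowers a count by itself, the cause of these changes was not tested.

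The replicate numbers are shared by libraries 1 to 3 of each group, but same-numbered libraries did not deviate together (correlations 0.0947, 0.0258 and -0.104), so the numbers were not taken as pairs. With the replicate block over these 6 libraries, 1447 were called for mutant against wildtype, all genes, and 31 nuclear subunit genes were lower. Without the block the same libraries gave 1590 and 37, an alternative chosen after seeing the data, as were those with principal transcript length. Few counts limit mt-Atp8, mt-Nd4l, Cox7a1 and Cox8b. Of these, mt-Nd4l has a near-identical nuclear copy, and its neighbour mt-Nd4 held 29948 counts or more in each library. The cause of the few counts on mt-Nd4l and mt-Atp8 was not tested.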
